A study of Mus musculus with 12 samples.

Results

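Markers of hepatic stellate cells and fibroblasts were followed in RNA-seq of whole mouse liver. The 10 genes Lrat, Reln, Des, Pdgfrb, Acta2, Tagln, Dcn, Lum, Fbn1 and Timp1 were taken by name. They were chosen with earlier results of these data known. All 10 were found among the 53465 gene rows of the count table. The 12 samples were livers of C57BL/6N mice, 1 animal each, and the study's methods describe its mice as male. They formed 3 age groups of 4 livers, which are called young at 3 months of age, middle-aged at 12 and aged at 18. The labels gave no treatment or altered allele for any group. The submitters' own texts leave the origin of the livers unclear. The series design counts 3 replicates per age where 4 samples are present, the RNA protocol covers 4 young and 4 old livers only, and the study's text draws its liver RNA-seq of the 3 ages from a published atlas. Each value below is a property of the whole tissue, in which fewer cells of a type and less RNA per cell cannot be told apart.

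Hepatic stellate cells lie between the sinusoidal endothelium and the hepatocytes. In the quiescent state they store vitamin A as retinyl esters in lipid droplets, and after injury they can turn into contractile, matrix-producing myofibroblasts. Portal fibroblasts surround the bile ducts and vessels, vascular smooth muscle lines the larger vessels, and mesothelial cells cover the organ. The 10 markers fall into groups by role. Lrat esterifies retinol, Reln encodes the secreted glycoprotein Reelin, Des encodes the intermediate filament protein desmin, and Pdgfrb encodes a receptor for platelet-derived growth factor found on stellate cells and pericytes. Acta2 and Tagln encode smooth muscle alpha-actin and transgelin, parts of the contractile apparatus. Dcn and Lum encode decorin and lumican, small leucine-rich proteoglycans that bind collagen, Fbn1 encodes fibrillin-1 of the microfibrils, and Timp1 encodes an inhibitor of matrix metalloproteinases.

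The markers lie on 9 chromosomes, since Dcn (chromosome 10, 97479609 to 97518143) and Lum (chromosome 10, 97565128 to 97572703) are neighbours on the plus strand, 46984 bases apart, in GRCm38 as annotated by GENCODE M21. Fbn1 lies on chromosome 2 (125300594 to 125507993), Reln on chromosome 5 (21884454 to 22344702), Lrat on chromosome 3 (82892579 to 82903973), Des on chromosome 1 (75360329 to 75368579), Acta2 on chromosome 19 (34241090 to 34255590), Tagln on chromosome 9 (45929619 to 45936058) and Timp1 on chromosome X (20870166 to 20874735). For 6 of the 10 markers, the 250 bases before the annotated start were matched in the RefSeq promoter table for GRCm38.p6. Dcn, Lum, Tagln and Pdgfrb were not matched. The windows of Fbn1 and Acta2 overlap exons annotated by GENCODE M21 and are not shown. The windows of Lrat, Reln and Des are shown as those of the vitamin A-storing and pericyte markers, whose starts differ in base composition. Each is given 5′ to 3′ on the strand of the gene, and capitals mark GC boxes.
Lrat (chr3:82903975-82904224, minus strand): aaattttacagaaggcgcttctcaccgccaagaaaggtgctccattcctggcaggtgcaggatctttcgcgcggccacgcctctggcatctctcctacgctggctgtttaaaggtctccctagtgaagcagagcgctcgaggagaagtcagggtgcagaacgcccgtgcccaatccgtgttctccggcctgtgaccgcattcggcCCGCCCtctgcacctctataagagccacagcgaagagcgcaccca
Reln (chr5:22344706-22344955, minus strand): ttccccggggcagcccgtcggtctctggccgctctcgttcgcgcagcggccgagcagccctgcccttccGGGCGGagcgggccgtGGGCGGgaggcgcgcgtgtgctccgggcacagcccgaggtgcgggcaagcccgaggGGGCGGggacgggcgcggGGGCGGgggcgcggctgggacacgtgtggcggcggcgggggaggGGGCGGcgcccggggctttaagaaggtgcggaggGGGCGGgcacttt
Des (chr1:75360042-75360291, plus strand): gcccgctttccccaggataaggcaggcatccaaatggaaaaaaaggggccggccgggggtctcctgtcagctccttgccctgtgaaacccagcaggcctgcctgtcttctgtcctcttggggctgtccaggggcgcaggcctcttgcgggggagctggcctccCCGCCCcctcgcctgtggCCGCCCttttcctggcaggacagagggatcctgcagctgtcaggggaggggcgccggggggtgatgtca
The GC box was searched as GGGCGG on both strands. It occurred 6 times before Reln, 2 times before Des and once before Lrat, and of all 32851 windows of this length 32.7% held at least 1. The window of Reln was 80.0% G or C with 37 CpG dinucleotides, that of Des 67.2% with 10 and that of Lrat 59.2% with 18, against medians of 52.4% and 6 over all windows. The letters TATAAA, present in 12.4% of all windows on either strand, were in none of the 6 matched windows, and neither was a perfect CArG box, present in 1.47%. These matches are descriptions of letters and not of bound sites.

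Counts assigned to genes ranged from 8124312 to 10527159 per liver. Young replicate 3 and middle-aged replicate 1 had 22284 and 19982 genes with at least 1 count, against 16361 to 17563 in the other 10 livers. Mitochondrial genes took 19.2% of the counts in young replicate 2 and 5.48 to 10.7% elsewhere. The composition of the added spike-in RNAs split replicates 1 and 2 of every age from replicates 3 and 4. Over 31 well-counted spike-ins the correlation was at least 0.997 within these sets and at most 0.925 between them. The labels do not say what the replicate numbers stand for, so the sets are named by the numbers. The hepatocyte gene Alb had 485654 to 774027 normalised counts, so the defining transcript of hepatocytes was present in every liver.

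Among the markers, Dcn was by far the most abundant. Normalised counts, which are counts divided by a size factor per liver, were further divided by exon length in kilobases to compare genes. On this scale Dcn stood at 263 ± 83.3 (SD, n = 12 livers), and its lowest liver, at 152, exceeded the highest liver of each other marker. Lum followed at 24.0 ± 9.12, Lrat at 23.0 ± 6.82, Des at 16.4 ± 7.20, Reln at 10.1 ± 3.24, Pdgfrb at 9.86 ± 4.22, Acta2 at 9.62 ± 4.79, Timp1 at 5.33 ± 7.32, Fbn1 at 2.27 ± 1.48 and Tagln at 0.566 ± 0.554. From Lum down to Tagln the ranges over livers of neighbours in this order overlapped. Dcn alone made up 65.7 to 78.3% of the summed normalised counts of the 10 markers. The contractile marker Tagln was close to absent, with 0 to 4 raw counts per liver, and the 3 livers at 0 allow up to 3 counts each. Its exons share 108 bases with Pcsk7 and 1241 bases with the antisense gene Gm48529 on the opposite strand, and the strand setting of the counting is not given in the sources used here. Timp1 had 0 to 7 raw counts in 11 livers and 25 in young replicate 4.

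**Figure D1:**
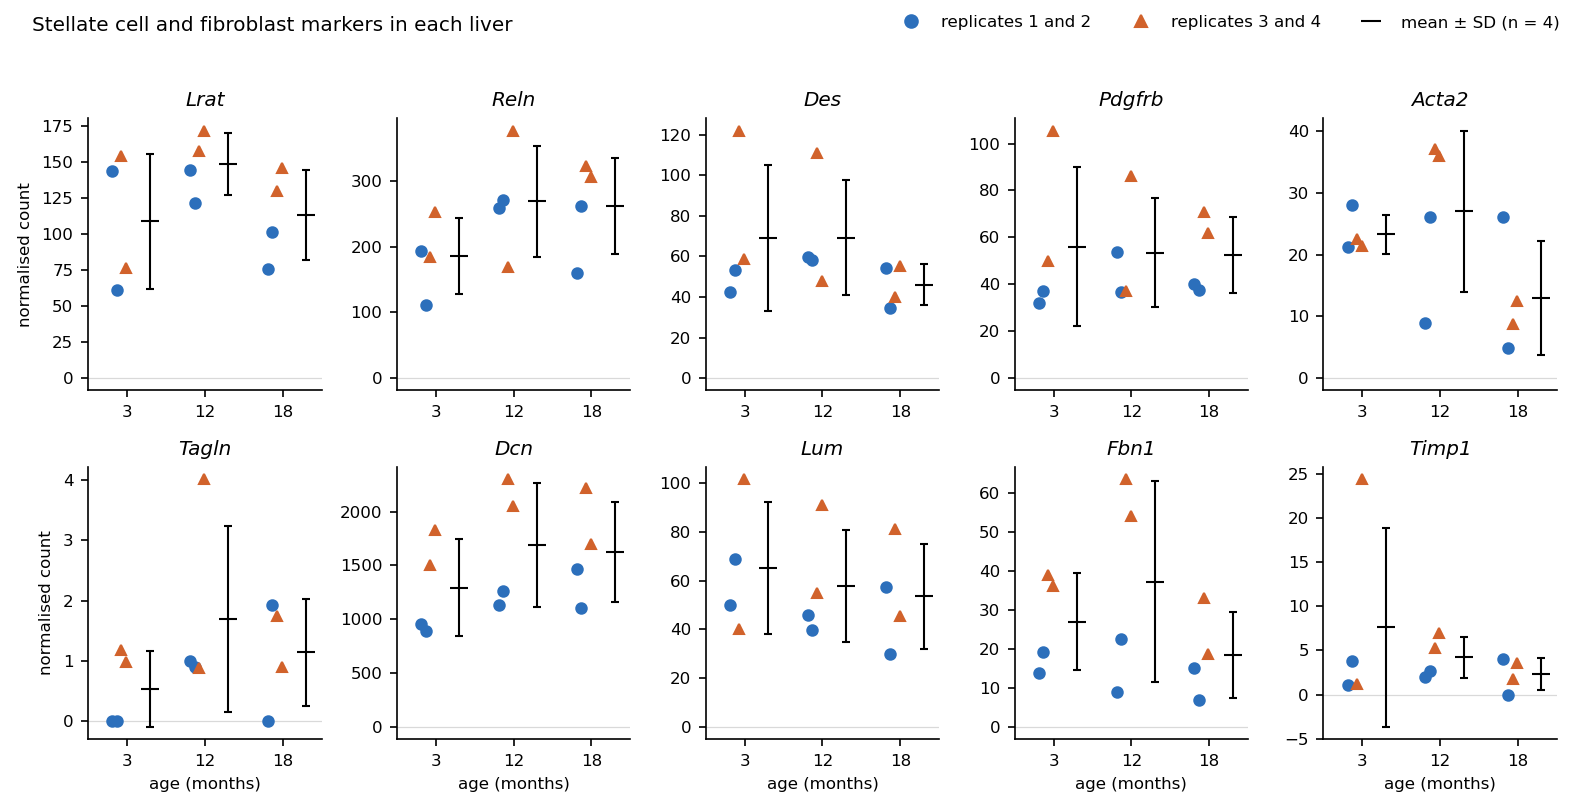
Normalised count of each marker (vertical axis, linear, own scale per gene) against age in months. Points are single livers, circles for replicates 1 and 2 and triangles for replicates 3 and 4, and bars give the mean ± SD of the 4 livers of an age. For Dcn and Fbn1 the triangles lie above the circles at each age, while the ages overlap for all 10 genes.

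The first question was whether the markers changed between 3, 12 and 18 months. No marker passed the test in any age comparison. In DESeq2, with Benjamini-Hochberg adjustment over all tested genes, 0 of 9 tested markers were called between aged and young livers, where 3.58% of all tested genes were called. Between middle-aged and young livers it was 0 of 8 against 6.41%, between aged and middle-aged livers 0 of 7 against 1.14%, and in the likelihood ratio test across the 3 ages 0 of 8 against 6.96%. Untested markers were those with too few counts for the independent filter. At an unadjusted p under 0.05 the counts were 0, 0, 1 (Acta2) and 0, and edgeR's quasi-likelihood test gave the same 4 numbers and no call. In no age comparison did the 4 livers of one age lie wholly above or below those of the other for any marker. This covers untested markers as well. Of all tested genes, 7.53%, 16.0% and 6.55% were separated in this way. With so few markers, counts of 0 beside these shares, or the shares of calls above, do not set the markers apart from other genes. With 4 livers per age the intervals below are wide, and changes within them were not detectable. With untested markers included, log2 fold changes were above 0 for 4 of 10 markers in aged over young livers. This number was 7 in middle-aged over young and 0 in aged over middle-aged livers. The shared direction in the last comparison was not tested.

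Among the vitamin A-storing and pericyte markers, Lrat and Reln had their lowest means in young livers and Des in aged livers, without a called difference. Lrat had 143, 61.1, 154 and 76.1 normalised counts in the young livers, 144, 121, 157 and 171 in the middle-aged and 75.3, 101, 129 and 146 in the aged. The middle-aged livers were the tightest, and both other ages reached below them. The log2 fold change was 0.06 for aged over young (95% interval -0.52 to 0.63, DESeq2 adjusted p = 0.959) and 0.45 for middle-aged over young (-0.12 to 1.02, adjusted p = 0.375). Reln had 194, 111, 185 and 253 normalised counts in the young, 259, 271, 170 and 377 in the middle-aged and 160, 263, 323 and 306 in the aged livers. Each age reached below 200. Both differences from the young livers were near 0.5 on the log2 scale, at 0.50 for aged (-0.06 to 1.06, adjusted p = 0.401) and 0.53 for middle-aged (-0.03 to 1.09, adjusted p = 0.260). Des averaged 69.1 ± 35.9 normalised counts at 3 months, 69.3 ± 28.4 at 12 months and 46.1 ± 10.3 at 18 months (SD, n = 4). The highest young and middle-aged livers, both replicate 3, stood at 122 and 111 (the young one being a liver of high gene number), and the remaining 10 livers lay between 34.7 and 59.6. Pdgfrb averaged 56.0 ± 33.8, 53.4 ± 23.2 and 52.5 ± 16.3 at the 3 ages, with a log2 fold change of -0.10 for aged over young (-0.90 to 0.71, adjusted p = 0.948). The sign of this small value turned to 0.01 when libraries were scaled by total gene counts.

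Of the contractile markers, Acta2 had the lowest mean in aged livers. It had 21.2, 28.0, 22.5 and 21.5 normalised counts in the young livers, 8.94, 26.0, 37.1 and 36.1 in the middle-aged and 26.1, 4.82, 8.74 and 12.5 in the aged. All aged livers but replicate 1 lay below every young liver, and middle-aged replicate 1 lay among them. The log2 fold change was -0.84 for aged over young (-1.85 to 0.17, DESeq2 adjusted p = 0.449) and -1.06 for aged over middle-aged (-2.06 to -0.06, unadjusted p = 0.0371, edgeR adjusted p = 0.477). Leaving out aged replicate 1, the highest aged liver, brought the DESeq2 test across 3 ages to an adjusted p of 0.0446 for this gene. That fit called 1637 of 12349 tested genes, beside 865 of 12430 with all livers, so the change was not particular to Acta2. Tagln was too low to be tested, with mean normalised counts of 0.540 at 3 months, 1.70 at 12 months and 1.14 at 18 months.

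The matrix genes showed no called age difference either. Dcn had 955, 889, 1502 and 1826 normalised counts in the young livers, 1133, 1260, 2299 and 2051 in the middle-aged and 1467, 1108, 2216 and 1698 in the aged. Within each age the livers fell into a lower and a higher pair, and the pairs were replicates 1 and 2 and replicates 3 and 4. The log2 fold change was 0.33 for aged over young (-0.22 to 0.87, DESeq2 adjusted p = 0.631) and 0.38 for middle-aged over young (-0.16 to 0.93, adjusted p = 0.447). With the replicate set as a term in the model, the value for middle-aged over young stayed at 0.38 and its SE fell from 0.278 to 0.128, which gave an adjusted p of 0.0486. The value for aged over young was then 0.36 with an adjusted p of 0.0958. For middle-aged over young, this model called 736 of 11902 tested genes. With a term for each replicate number instead, the middle-aged over young value of Dcn was 0.38 and was not called (DESeq2 adjusted p = 0.112). Within replicates 1 and 2 alone the middle-aged over young value of Dcn was 0.38 (adjusted p = 0.596), and within replicates 3 and 4 alone it was 0.38 (adjusted p = 0.204).

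Lum averaged 65.1 ± 27.0 normalised counts at 3 months, 57.8 ± 23.1 at 12 months and 53.5 ± 21.7 at 18 months (SD, n = 4), with ranges of 40.3 to 102, 39.5 to 91.2 and 29.9 to 81.3. Its log2 fold change for aged over young was -0.29 (-1.02 to 0.45, DESeq2 adjusted p = 0.794). Fbn1 had 13.8, 19.1, 39.1 and 36.1 normalised counts in the young livers, 8.94, 22.4, 63.6 and 54.1 in the middle-aged and 15.1, 6.74, 33.2 and 18.8 in the aged. As for Dcn, replicates 3 and 4 were the higher livers at each age. Its log2 fold change was -0.55 for aged over young (-1.72 to 0.63, adjusted p = 0.736) and -1.01 for aged over middle-aged (-2.17 to 0.15, adjusted p = 0.610). Timp1 had 1.06, 3.82, 1.18 and 24.4 normalised counts in the young livers, and 0 to 7.02 in the other ages. Young replicate 4 carried most of its young signal, and the value of -1.73 for aged over young (-3.84 to 0.39, adjusted p = 0.462) rests on it.

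**Figure D2:**
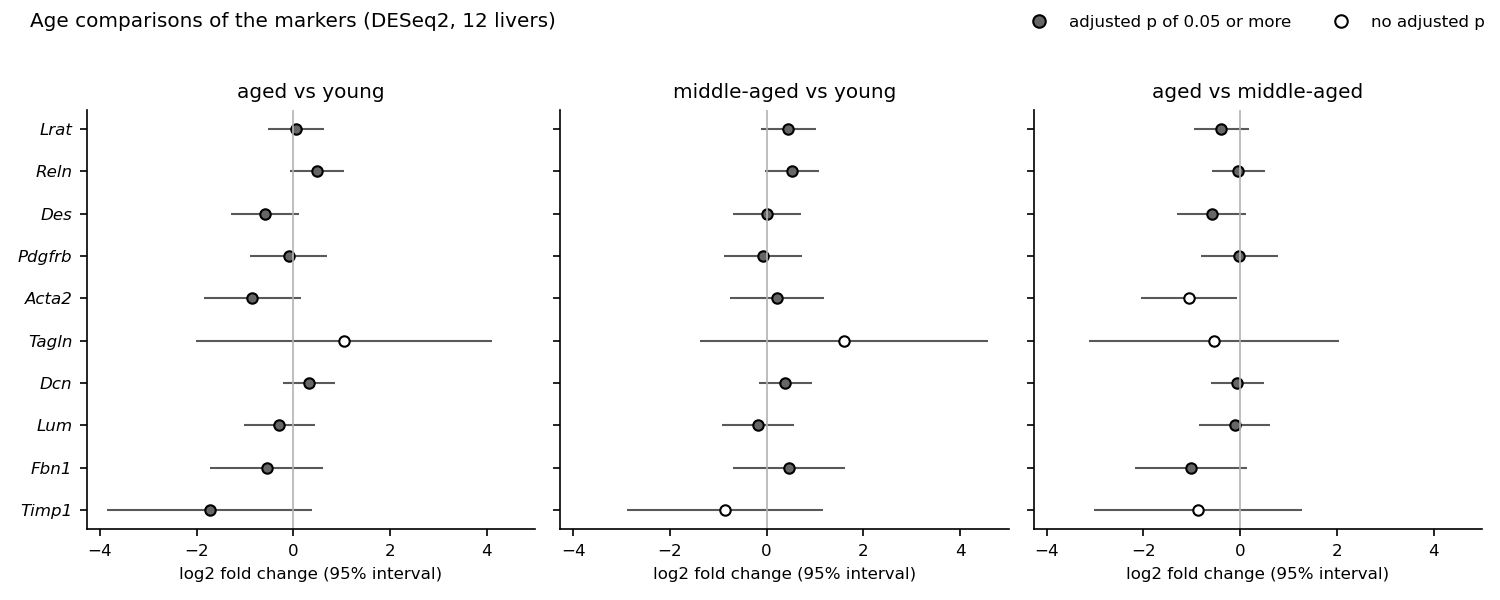
Log2 fold change of each marker (horizontal axis) with its 95% interval in the 3 age comparisons, from DESeq2 over 12 livers. Filled points have an adjusted p of 0.05 or more and open points have no adjusted p; every interval of a filled point includes 0, and the interval of Acta2 between aged and middle-aged livers, which ends at -0.06, belongs to an open point.

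The next question was how the markers varied with replicate number. With age in the model, Dcn and Fbn1 were higher in replicates 3 and 4 than in replicates 1 and 2. Dcn was higher by 0.77 on the log2 scale (SE 0.104, 95% interval 0.57 to 0.98, DESeq2 adjusted p = 1.99e-09), or 1.71-fold, and Fbn1 by 1.47 (SE 0.317, 0.85 to 2.09, adjusted p = 0.00591), or 2.78-fold. These 2 of 9 tested markers compare with 0.361% of all tested genes called in either direction and 0.326% called higher. Dcn spanned 889 to 1467 normalised counts in the 6 livers of replicates 1 and 2 and 1502 to 2299 in the 6 of replicates 3 and 4, so the sets did not overlap, as was true in this direction for 0.284% of tested genes. Fbn1 spanned 6.74 to 22.4 and 18.8 to 63.6, with aged replicate 4 below middle-aged replicate 2. Both genes were higher in replicates 3 and 4 without overlap at each of the 3 ages, which held for 1.03% of tested genes. The log2 ratio of the set means was 0.85, 0.86 and 0.60 for Dcn and 1.19, 1.91 and 1.25 for Fbn1 at 3, 12 and 18 months.

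The call for Dcn held in edgeR (log2 fold change 0.76, adjusted p = 0.0236), where it was the single called gene among 12099 tested, or 0.00827%. The call for Fbn1 did not (1.46, adjusted p = 0.198). It was also lost without middle-aged replicate 3 (1.39, adjusted p = 0.0552), without aged replicate 2 (1.38, adjusted p = 0.0563) and without aged replicate 3 (1.39, adjusted p = 0.0971). With both livers of high gene number left out, a setting chosen after seeing the data, Dcn stood at 0.77 (adjusted p = 1.55e-05) and Fbn1 at 1.27 (adjusted p = 0.0701).

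The other 8 markers had positive values in this comparison as well. None of them was called, and Tagln had too few counts to be tested. Pdgfrb came nearest, at 0.79 (0.26 to 1.33, unadjusted p = 0.0036, DESeq2 adjusted p = 0.210). It had 31.8 to 53.6 normalised counts in replicates 1 and 2 and 37.1 to 105 in replicates 3 and 4. Lrat stood at 0.37 (-0.07 to 0.81, adjusted p = 0.680), Reln at 0.38 (-0.05 to 0.80, adjusted p = 0.647) and Des at 0.49 (-0.05 to 1.03, adjusted p = 0.629). Their intervals include both 0 and values as large as that of Dcn. Lum stood at 0.53 (-0.02 to 1.08, adjusted p = 0.588), Acta2 at 0.15 (-0.69 to 0.99, adjusted p = 0.966) and Timp1 at 1.46 (-0.20 to 3.12, adjusted p = 0.650). The median over the 9 tested markers was 0.53, beside 0.00 over all tested genes. In the test of whether age differences depended on the replicate set, 0 of 8 markers were called, against 1.60% of all tested genes (smallest edgeR adjusted p = 0.691). At an unadjusted p under 0.05 this count was also 0 by both tools. With 2 livers per age in each set and so small a share, the test could miss such a dependence.

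**Figure D3:**
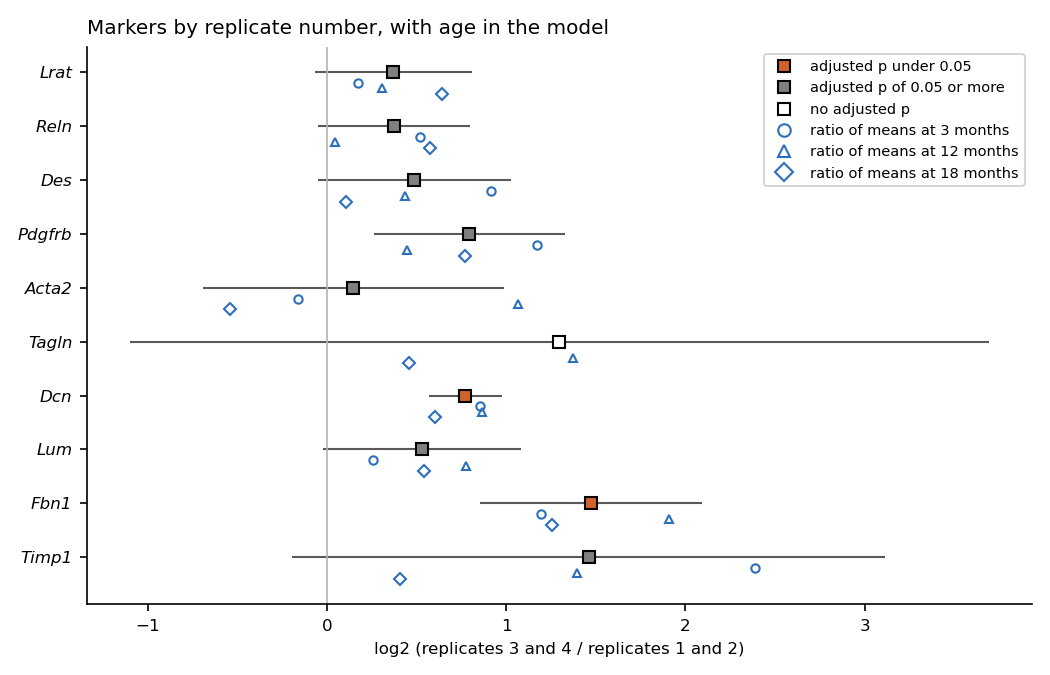
Log2 ratio of replicates 3 and 4 over replicates 1 and 2 (horizontal axis) for each marker, with squares and lines for the DESeq2 estimate with age in the model and its 95% interval. Blue symbols are log2 ratios of the set means within each age; for Tagln at 3 months none is drawn because replicates 1 and 2 were at 0. Dcn at 0.77 and Fbn1 at 1.47 are the filled orange squares.

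Genes of related function were then described list by list. The lists and the genes named for the replicate comparison were chosen with results known. Of 181 listed genes other than the markers 168 were tested, and 6 of these were called between the replicate sets, all 6 higher in replicates 3 and 4, beside 0.361% called and 0.326% called higher over all tested genes. They were the fibrillar collagen genes Col3a1 (1.16 on the log2 scale, SE 0.231, DESeq2 adjusted p = 0.00231) and Col1a2 (1.04, SE 0.268, adjusted p = 0.0422), the fibroblast and endothelial surface gene Cd34 (1.67, SE 0.373, adjusted p = 0.00882), the microfibril gene Mfap5 (2.60, SE 0.634, adjusted p = 0.0235), the proteoglycan gene Ogn (1.59, SE 0.415, adjusted p = 0.0467) and the TGF-beta co-receptor gene Tgfbr3 (0.80, SE 0.193, adjusted p = 0.0215). None of the 6 was called by edgeR, whose filter left out Mfap5, and 2 of them, Col3a1 and Ogn, were called with both livers of high gene number left out. Col3a1 had 292, 229, 470 and 645 normalised counts in the young livers, 161, 286, 866 and 481 in the middle-aged and 248, 123, 393 and 251 in the aged. Like Dcn and Fbn1 it was higher in replicates 3 and 4 at each age.

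The matrix and fibroblast lists lay on the same side as Dcn and Fbn1, beside a median of -0.001 over all tested genes. All genes were measured in the same 12 livers, so the counts of positive genes are not independent of each other. All 11 tested collagen genes had positive values (2 called, median 0.70), as had all 12 tested elastic fibre and microfibril genes (0 called, median 0.90) and 14 of 15 tested portal fibroblast and mesothelial markers (2 called, median 1.44). The mesothelial genes Msln, Upk3b and Gpm6a stood at 1.44, 1.58 and 1.77, with adjusted p of 0.346, 0.118 and 0.0800. The 20 further stellate cell markers had a median of 0.22, with 18 positive and 0 called. Medians were 0.77 for proteoglycan genes (5 of 6 positive, 1 called) and 0.38 for metalloproteinase and inhibitor genes (8 of 10, 0 called). They were 0.20 for smooth muscle genes (8 of 10, 0 called) and 0.10 for retinoid handling genes (8 of 14, 0 called). The growth factor and TGF-beta signalling list had 0.17 (16 of 19, 1 called) and the Reelin pathway list 1.44 (2 of 2, 0 called). The summed level of the portal fibroblast and mesothelial list was 404 to 1143 normalised counts in replicates 1 and 2 and 745 to 2796 in replicates 3 and 4. The collagen list summed to 1218 to 1705 and 1678 to 2882. Among lists for other cells, the medians were -0.05 for 10 hepatocyte, -0.09 for 10 Kupffer cell, -0.16 for 10 sinusoidal endothelial, 0.11 for 7 cholangiocyte, 0.84 for 8 lymphocyte and 0.04 for 6 erythroid genes, with 0 called in each. The summed lymphocyte level was 123 to 204 in replicates 1 and 2 and 149 to 463 in replicates 3 and 4. All 16 portal fibroblast and mesothelial and all 8 lymphocyte markers averaged at least 1 normalised count. Their part in the values of Dcn and Fbn1 was not tested.

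**Figure D4:**
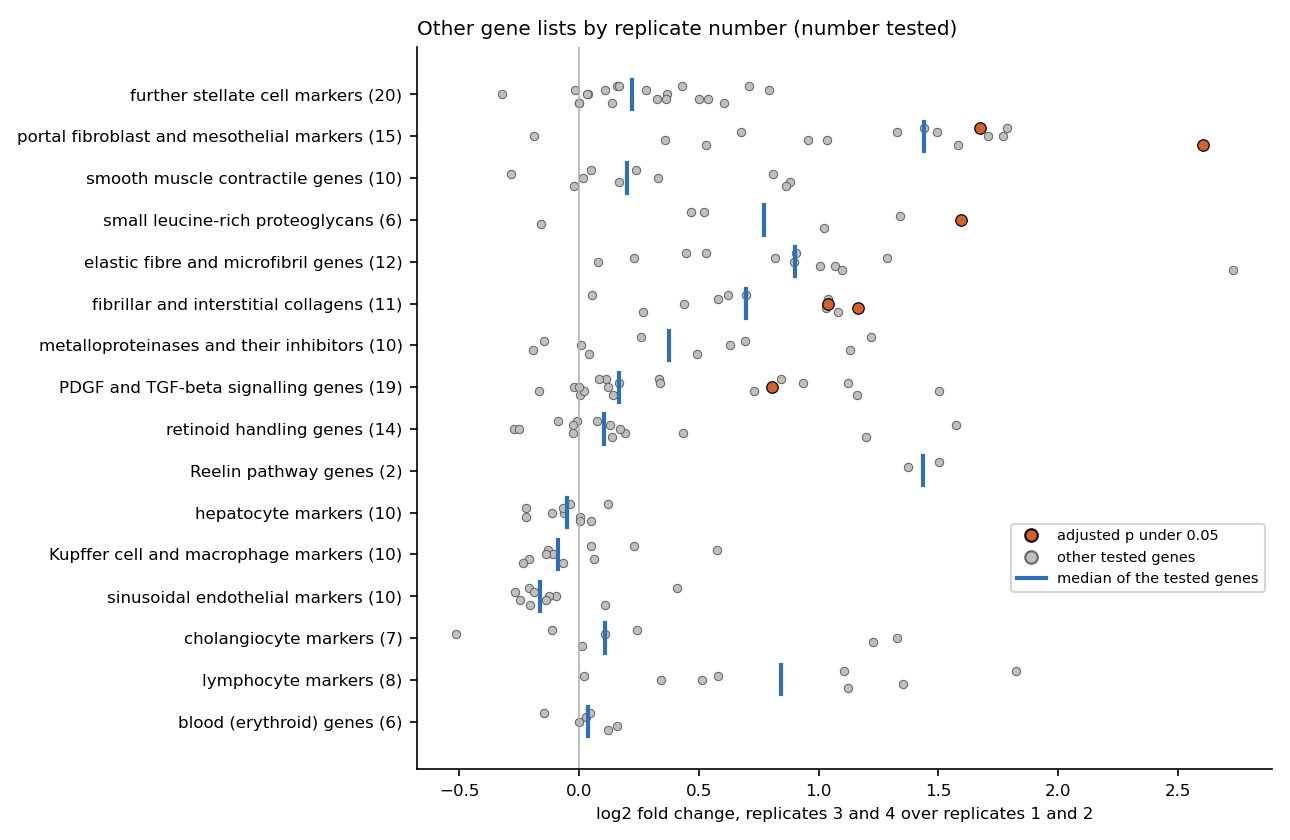
Log2 fold change of replicates 3 and 4 over replicates 1 and 2 (horizontal axis) for the tested genes of each list, 1 point per gene, with the number tested in parentheses and a blue bar at the median. Orange points are the 6 genes called by DESeq2; the portal fibroblast and mesothelial list has a median of 1.44 and the hepatocyte list of -0.05.

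Across age, 11 of 165 tested genes of these lists were called between aged and young livers, 5 of 150 between middle-aged and young livers and 4 of 138 between aged and middle-aged livers. Over all tested genes 3.58%, 6.41% and 1.14% were called. Of 20 further stellate cell markers, 3 were called between aged and young livers, of which 2 are described. Ecm1, which encodes extracellular matrix protein 1, was higher in the aged livers by 0.57 (SE 0.128, DESeq2 adjusted p = 0.00118), with 451 to 675 normalised counts in young and 808 to 956 in aged livers. Vipr1, a receptor for vasoactive intestinal peptide, stood at -0.42 (SE 0.133, adjusted p = 0.0496). The median of the 20 was 0.20, beside 0.00 over all tested genes.

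Among 14 retinoid handling genes, 2 were called between aged and young livers, 1 higher and 1 lower, of which the higher is described. Dhrs3, which reduces retinaldehyde to retinol, was higher in aged livers by 0.41 (SE 0.0750, DESeq2 adjusted p = 1.90e-05). The median of the 14 was 0.07. Of 10 tested metalloproteinase and inhibitor genes, the membrane-bound metalloproteinase gene Mmp14 was higher in aged than in young livers (0.82, SE 0.135, adjusted p = 7.20e-07) and than in middle-aged livers (0.49, SE 0.131, adjusted p = 0.0226). Its normalised counts ran from 185 to 236 at 3 months, from 227 to 316 at 12 months and from 343 to 425 at 18 months, so that the aged livers lay above all others. The list as a whole did not share this rise. Between aged and young livers 6 of 10 tested genes were above 0 (median 0.01). Between aged and middle-aged livers 1 of 9 was above 0, which was Mmp14 (median -0.38). The inhibitor gene Timp3 was higher in middle-aged than in young livers (0.81, SE 0.265, adjusted p = 0.0385). Of the portal fibroblast list, Dpt, the matrix protein dermatopontin, was lower in aged than in young livers (-1.49, SE 0.469, adjusted p = 0.0439) and than in middle-aged livers (-1.62, SE 0.467, adjusted p = 0.0484). Col15a1 was higher in middle-aged than in young livers (0.83, SE 0.230, adjusted p = 0.0113) and lower in aged than in middle-aged livers (-1.01, SE 0.229, adjusted p = 0.00335). Between middle-aged and young livers, the basement membrane collagen gene Col4a2 was lower (-0.46, SE 0.123, adjusted p = 0.00681) and Smad3, a mediator of TGF-beta signals, was higher (0.55, SE 0.172, adjusted p = 0.0307).

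No gene of the smooth muscle, proteoglycan, elastic fibre or Reelin pathway lists was called across age by DESeq2. Their most abundant members were Cald1, Bgn, Ltbp4 and Thbs1, at 0.14, -0.01, 0.33 and 0.17 for aged over young. Of the 4 listed Reelin pathway genes, only 2 were tested between aged and young livers and 1 in each of the other age pairs. By edgeR, 3 of the 11 listed genes called between aged and young livers kept an adjusted p under 0.05 (Dhrs3, Ecm1 and Mmp14), 2 of 5 between middle-aged and young livers (Col15a1 and Col4a2) and 0 of 4 between aged and middle-aged livers. With both livers of high gene number left out, 6 of the 11, 2 of the 5 and 2 of the 4 remained called. Those lost were Dpt, Vipr1, Marco, Alas2 and Hbb-bs between aged and young livers (adjusted p = 0.152, 0.181, 0.103, 0.0506 and 0.0808), Col15a1, Col4a2 and Timp3 between middle-aged and young livers (adjusted p = 0.0590, 0.0765 and 0.0765), and Dpt and Mmp14 between aged and middle-aged livers (adjusted p = 0.0603 and 0.242). Some lists for other cells also held called genes. Between aged and young livers the macrophage gene Marco stood at 2.46 (DESeq2 adjusted p = 0.0178), the biliary gene Sox9 at 0.86 (adjusted p = 0.0169), and the erythroid genes Alas2 and Hbb-bs at -0.60 and -1.67 (adjusted p = 0.0255 and 0.0498). Marco and Sox9 did not stand for their lists. In the macrophage list 2 of 10 tested genes were above 0 (median -0.08), and in the cholangiocyte list 2 of 6 (median -0.16). Marco had 791, 104, 96.1 and 261 normalised counts in the aged livers. The summed erythroid level was 23026 to 86547 normalised counts in young and 9691 to 21278 in aged livers. Of the hepatocyte, endothelial and lymphocyte lists no gene was called across age, and their most abundant genes Alb, Ehd3 and Ptprc stood at 0.31, 0.07 and -0.37 for aged over young. The part of these other cells in the marker values was not tested.

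Finally, the markers were compared with each other and with all genes across the 12 livers. Pearson's r of log2(normalised count + 1) is given as a description, over the 8888 genes averaging 50 normalised counts or more. The genes most like Dcn were Cd63 (0.89), Celf2 (0.87) and Pam (0.87). For Pdgfrb they were Prelp (0.85), Tcf21 (0.85) and Tgfbi (0.85), of which Prelp and Tcf21 also stood in the proteoglycan and stellate cell lists. For Reln they were Abcc9 (0.94), Arvcf (0.93) and Zc3h14 (0.93), for Lrat Ankrd28 (0.92), Pkd1 (0.90) and Usp8 (0.88), for Lum AU021092 (0.91), Fgl2 (0.91) and Fmo2 (0.89), and for Des Tpm2 (0.85), Rac2 (0.79) and Rps6kb2 (0.77). All points share library and replicate set.

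Of 6 pairs of markers tested against each other, none had a correlation that passed a two-sided permutation test over the 12 livers when age was left aside. On deviations from the age mean, r was 0.62 for Dcn with Lum (permutation p = 0.0378, not adjusted over the 6 pairs). Pearson's r was 0.48 for this pair without that step (Spearman's rho 0.42, permutation p = 0.118 and 0.177), -0.23 within replicates 1 and 2 and 0.51 within replicates 3 and 4. It was 0.38 for Dcn with Lrat (rho 0.53, permutation p = 0.216 and 0.0792), and 0.02 and 0.10 within the sets. For Fbn1 with Pdgfrb, r was 0.43 (rho 0.31, permutation p = 0.164 and 0.321) but -0.39 and -0.24 within the sets, so the positive value was not found inside either set. Lrat with Reln gave 0.54 (rho 0.40, permutation p = 0.0707 and 0.201), with 0.80 and -0.01 within the sets, and Acta2 with Des gave 0.51 (rho 0.37, permutation p = 0.0827 and 0.237), with 0.56 and 0.52. Acta2 with Tagln gave -0.23 (rho -0.36, permutation p = 0.472 and 0.252), with -0.82 (exact permutation p = 0.025) and 0.24 within the sets, on Tagln counts of at most 4. The smallest Benjamini-Hochberg adjusted p over the 6 pairs was 0.237 for r and 0.302 for rho. Without the 2 livers farthest from the median of the first gene, r was 0.73 for Dcn with Lum, 0.26 for Dcn with Lrat, 0.62 for Fbn1 with Pdgfrb, -0.06 for Lrat with Reln, 0.18 for Acta2 with Des and 0.11 for Acta2 with Tagln.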

How the data were processed

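The authors deposited whole-number read counts per gene, without normalisation, in 1 table of 12 livers. Submitters' processing notes name STAR 2.5.2b, SAMtools 1.9, featureCounts, R 3.6.3, edgeR 3.28.1, DESeq2 1.26.0 and the builds mm10 and GRCm38. The annotation and the strand setting of the counting are not given in the sources used here, and the labels name a directional library kit. Ages and replicate numbers were taken from the sample labels, which state that each sample is 1 animal. Symbols and positions were taken from GENCODE M21, in which 53274 of 53465 identifiers were found, and the 92 rows of spike-in RNA entered no test. Counts per liver (8124312 to 10527159) put the limit of 3 counts at 0.285 to 0.369 CPM (counts scaled to a common total), for counting error only.

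DESeq2 1.42.0 (R 4.3.3) was run on all 12 livers, with age as the term for the Wald tests of age pairs and the likelihood ratio test of 3 ages, and with replicate set (1 and 2, or 3 and 4) added for the other tests. Independent filtering was left at its default level of 0.1, calls were made at an adjusted p under 0.05 over all tested genes, and intervals are the estimate ± 1.96 SE. The script was tested on simulated counts. Alternatives were edgeR 4.0.16 quasi-likelihood tests, TMM and total-count scaling, a filter of 10 counts in 4 livers, no independent filtering, fits of the 2 ages compared, the replicate set as a term, a replicate block, fits within the replicate sets, and each liver left out. Markers and lists were chosen with earlier results of these data known. All markers were named; from the other lists, up to 3 genes called in an age comparison with the smallest adjusted p were named, or else the gene of highest mean, and genes named for the replicate comparison were chosen after their values were seen. A few genes that this rule would name are not reported here. Correlations used log2(normalised count + 1) with 100000 permutations, or all of them within sets of 6. Deviations from age means of same-numbered livers correlated between -0.303 and 0.159, so the replicate numbers were not taken as pairs.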

Additional observations from a re-analysis of the deposited data

Results flagged for a closer look

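In 30 groups of 4 livers (10 markers at 3 ages), the highest or lowest liver stood apart from the other 3 by Dixon's criterion in 2, where chance alone gives about 1.5. Timp1 had 24.4 normalised counts in young replicate 4, against 1.06 to 3.82 in the other young livers. Tagln had 4.01 normalised counts in middle-aged replicate 4, against 0.883 to 0.993 in the other middle-aged livers, a difference between 4 raw counts and 1. Neither gene was called in any comparison, but Tagln was untested in all of them. Timp1 was tested only between aged and young livers and between the replicate sets.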

How the results depend on the processing

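Of 137 recomputed values of the numbers of called markers and the 6 correlations, 129 stayed within the limits set for a change. The number of called markers between the replicate sets was 2 and became 1 in edgeR and with young replicate 3 and middle-aged replicate 1 left out together (chosen after seeing the data), and ranged from 1 to 2 when each liver was left out. For middle-aged over young livers it was 0 and became 1 (Dcn) with the replicate set as a term, where 736 of 11902 tested genes were called. Across the 3 ages it was 0 and ranged from 0 to 1 (Acta2) when each liver was left out. The fit that called Acta2 also called 1637 of 12349 tested genes. In the other comparisons it was 0 in every fit, and with the replicate block it was 0 in all 4 age tests. The correlation of Dcn with Lum rose from 0.48 to 0.62 (permutation p = 0.0378) on deviations from the age mean. Of 758 recomputed fold changes of single markers, none that was called changed sign, and 50 uncalled ones did, 2 of these under another scaling (Pdgfrb in both comparisons with young livers). Scaling by total gene counts put the median log2 fold change of genes averaging 10 or more normalised counts at 0.12 in place of 0.01 in both comparisons with young livers, and moved the share of higher calls from 52.3 to 82.3% for aged over young and from 54.7 to 84.1% for middle-aged over young. Over all genes, the 51 calls between the replicate sets became 1 in edgeR, 20 without the pair of livers named above, 24 without independent filtering, 87 with the count filter and 101 with total-count scaling, and ranged from 6 to 152 with each liver left out. Calls for aged over young (484) ranged from 72 (edgeR with the replicate block) to 1291, those for middle-aged over young (727) from 119 to 1166, those for aged over middle-aged (117) from 13 to 426 and those across 3 ages (865) from 92 to 1637, and calls of the interaction (182) from 64 upward. The causes were not tested. Low counts limit Tagln, with at most 4 raw counts per liver, and Timp1, with at most 7 in 11 livers.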
